A study of Mus musculus with 19 samples.

Results

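The genes described here are 10 imprinted genes of growth and differentiation: H19, Igf2, Dlk1, Meg3, Cdkn1c, Ndn, Phlda2, Slc38a4, Snrpn and Grb10. They were taken by symbol from an RNA-seq table of 25124 genes, and all 10 were found in it. All 10 also passed the filter on low counts, which kept 14720 genes. For H19 and Slc38a4 that rests on the fetal libraries, since 0 of 6 adult libraries reached the level the filter asks for, 0.340 counts per M counts of the library, and Slc38a4 had no adult count at all. Being tested thus required these 2 genes to be higher in the fetus, and they get no age test. The description covers every RNA-seq library of the series and the open chromatin regions listed near the start site of each gene.

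Genomic imprinting is the expression of a gene from the copy inherited from 1 parent, set by DNA methylation placed in egg or sperm. Imprinted genes lie in clusters and act largely on growth before birth: paternally expressed genes such as Igf2 and Dlk1 tend to promote it, and maternally expressed ones such as H19, Cdkn1c, Phlda2 and Grb10 tend to restrain it. In the mouse, several of them are known as genes of long-term hematopoietic stem cells, where Cdkn1c and the imprinted noncoding RNAs H19 and Meg3 have been linked to quiescence. Parental copies cannot be told apart in the libraries described here, since all mice were of the inbred strain C57BL/6, so only the summed level of both copies was measured.

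Cells were sorted by flow cytometry from 2 sources in C57BL/6 mice, the liver of fetuses at stage E14.5 (days of gestation) and the bone marrow of adults aged 12 weeks, with no transgene or treatment named in the labels. Hematopoietic stem cells (HSC) carried c-Kit, Sca-1 and CD150 and lacked CD48 and Flt3, and lymphoid-primed multipotent progenitors (LMPP) were CD150-negative and positive for Flt3, CD48, Sca-1 and c-Kit. Cells with CD3, Gr1, B220 or Ter119 were gated out at both ages, and for CD11b the labels name this step in adults alone. RNA-seq covered 3 adult HSC, 2 fetal HSC, 3 adult LMPP and 3 fetal LMPP libraries, and open chromatin was given as 4 peak lists, 1 for each group and each made from 2 replicates. The series calls its replicates biological without saying which animals or pools they came from, so the p-values rest on spread between libraries that may be partly technical. Fetal and adult cells also differed in organ, so age and organ cannot be told apart.

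The libraries held 19.8 to 64.8 M counts each, so that a gene with no count could still lie at up to 3 counts, or 0.0498 to 0.152 CPM, its counts scaled to a common library total. Group means of 2 gate markers matched the sort: Slamf1, which encodes CD150, averaged 70.9 CPM in adult and 54.7 in fetal HSC against 0.481 and 0.241 in LMPP, and Flt3 averaged 974 and 492 CPM in adult and fetal LMPP against 13.4 and 29.0 in HSC. Adult HSC 3, adult LMPP 3 and fetal LMPP 1 stood apart from their groups: the correlation of log2 CPM across genes was 0.926 and 0.931 between adult HSC 3 and its fellows against 0.969 between those, and the share of all counts on Ubb, a ubiquitin gene, was 2.68% in adult HSC 3 and 2.59% in adult LMPP 3 while the other libraries had 0.897% to 1.54%. For LMPP, the correlations of the library that stood apart with its fellows were 0.949 and 0.951 in adults, against 0.961, and 0.949 and 0.954 in the fetus, against 0.964. The 7 HSC gate and stem markers added up to 1602 CPM in adult HSC 3 against 2632 and 2819 in its fellows. They added up to 370 in adult LMPP 3 against 813 and 891, and to 715 in fetal LMPP 1 against 750 and 921. The 7 LMPP gate and lymphoid priming markers added up to 315 CPM in adult HSC 3 against 1217 and 1296. In adult LMPP 3 they stood at 3276 against 3235 and 3167, and in fetal LMPP 1 at 1248 against 1371 and 1452. Summed markers of other cells differed between groups. The 9 erythroblast markers added up to 39.2 to 146 CPM in adult HSC and 1210 and 1361 in fetal HSC, and to 27.2 to 61.2 in adult LMPP and 171 to 531 in fetal LMPP. The 12 hepatocyte markers added up to 20.1 to 29.8 CPM in adult HSC and 14.8 and 71.3 in fetal HSC, and to 35.7 to 49.2 in adult LMPP and 35.2 to 95.8 in fetal LMPP. Of these, Alb (albumin) was at 0 in all 6 adult libraries. The 13 endothelial and stromal markers spanned 43.3 to 63.5, 71.3 to 87.4, 50.5 to 73.2 and 49.7 to 60.3 CPM, and the 9 macrophage markers 15.4 to 47.1, 22.8 to 29.2, 68.4 to 77.5 and 79.7 to 172 CPM, in adult HSC, fetal HSC, adult LMPP and fetal LMPP. The part of these cells in the results below was not tested unless a value is given, and in sorted bulk samples fewer cells that carry a transcript and less of it per cell cannot be told apart.

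Of the 10 genes, 8 matched a promoter window in the RefSeq tables of GRCm38.p6 (the mm10 assembly), with 18 windows in all. The 250 bases before the start site are shown for the 5 of these 8 genes with a listed open region within 1 kb of that start site in at least 1 group, since the RNA levels and open regions below are read against them. They run 5′ to 3′ along the gene, in lower case, and capitals mark matches on either strand to 6 motifs: TATAAA (the TATA box), CCAAT (the CCAAT box), GGGCGG (the GC box bound by SP1), CCGGAAGT (bound by ETS factors), TGTGGT (bound by RUNX factors) and AGATAA (bound by GATA factors). None of them contains another.
Igf2, chr7:142658805-142659054, minus strand: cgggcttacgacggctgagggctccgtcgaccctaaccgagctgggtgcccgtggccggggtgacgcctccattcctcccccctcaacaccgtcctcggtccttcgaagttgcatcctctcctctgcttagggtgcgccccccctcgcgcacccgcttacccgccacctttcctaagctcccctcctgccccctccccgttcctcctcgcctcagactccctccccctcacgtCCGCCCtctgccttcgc
Phlda2, chr7:143502525-143502774, minus strand: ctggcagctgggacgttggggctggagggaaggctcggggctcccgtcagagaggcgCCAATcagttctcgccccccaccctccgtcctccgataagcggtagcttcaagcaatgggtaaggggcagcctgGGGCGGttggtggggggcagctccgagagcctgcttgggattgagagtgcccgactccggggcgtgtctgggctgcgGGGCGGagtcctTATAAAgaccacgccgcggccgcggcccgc
Grb10, chr11:12037421-12037670, minus strand: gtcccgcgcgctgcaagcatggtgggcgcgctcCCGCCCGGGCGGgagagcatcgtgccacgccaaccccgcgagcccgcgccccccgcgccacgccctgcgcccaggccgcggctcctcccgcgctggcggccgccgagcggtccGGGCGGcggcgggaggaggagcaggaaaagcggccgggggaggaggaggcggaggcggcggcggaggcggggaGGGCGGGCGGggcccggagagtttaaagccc
Ndn, chr7:62348027-62348276, plus strand: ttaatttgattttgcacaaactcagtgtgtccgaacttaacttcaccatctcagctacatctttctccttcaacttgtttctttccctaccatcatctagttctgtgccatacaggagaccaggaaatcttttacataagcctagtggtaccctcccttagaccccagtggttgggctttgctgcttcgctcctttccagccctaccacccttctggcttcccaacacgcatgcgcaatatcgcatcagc
Snrpn, chr7:60005200-60005449, minus strand: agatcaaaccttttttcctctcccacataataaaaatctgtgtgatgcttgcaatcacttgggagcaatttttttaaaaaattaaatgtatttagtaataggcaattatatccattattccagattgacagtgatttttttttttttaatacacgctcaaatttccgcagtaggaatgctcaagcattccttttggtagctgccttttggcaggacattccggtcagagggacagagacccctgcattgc

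The 5 windows differed widely in base composition. Grb10 held 40 CpG pairs at 81.2% G+C, Igf2 22 at 68.8% and Phlda2 21 at 68.8%, while Ndn held 5 at 47.2% and Snrpn 3 at 36.8%. The median of all 32851 RefSeq windows was 6 CpG pairs and 52.4% G+C. Phlda2 held TATAAA, which starts 30 bases before the start site, CCAAT and GGGCGG at 2 places. Igf2 held GGGCGG at 1 place and Grb10 at 5, of which the last pair overlap, and the letters searched were not in the Ndn and Snrpn windows. Among all windows 12.4% held TATAAA, 33.8% CCAAT, 32.7% GGGCGG, 2.88% CCGGAAGT, 14.05% TGTGGT and 9.99% AGATAA. These matches describe the letters and do not show sites.

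H19 also hosts a microRNA, miR-675, inside its exon, and its mature sequences are shown because the same exon reads fall on a line of its own in the table. Capitals mark the seed, bases 2 to 8, which differs between the arms.
mmu-miR-675-5p: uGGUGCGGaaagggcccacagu
mmu-miR-675-3p: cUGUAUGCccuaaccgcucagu

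The group means followed a few orders. H19, Igf2, Dlk1 and Snrpn ran from fetal HSC through fetal LMPP and adult HSC down to adult LMPP, and Meg3, Cdkn1c, Ndn and Grb10 ran from fetal HSC through adult HSC and fetal LMPP down to adult LMPP. Compared per kb of exon, Cdkn1c, Ndn and Grb10 were the most abundant of the 10 in fetal HSC, at 61.6 ± 6.98, 60.7 ± 1.57 and 54.7 ± 3.76 CPM per kb (SD, n = 2), levels above 88.9%, 88.7% and 87.1% of the tested genes. In adult HSC, Ndn led at 43.1 ± 7.23 CPM per kb and Cdkn1c followed at 37.2 ± 13.1 (SD, n = 3). In fetal LMPP the leaders were Ndn at 21.7 ± 6.71, Cdkn1c at 16.3 ± 6.39 and Dlk1 at 14.3 ± 1.40 CPM per kb (SD, n = 3), and the libraries of these 3 genes spread into each other. In adult LMPP no gene of the 10 averaged over 3.72 CPM per kb, the level of Ndn. Of the other 2 genes, Phlda2 was highest in adult HSC and lowest in fetal LMPP, and Slc38a4 was detected in the 2 fetal groups alone. The ranges of neighbouring groups in that order overlapped for Dlk1 and Slc38a4 (fetal HSC and fetal LMPP), Snrpn (fetal LMPP and adult HSC) and Phlda2 (fetal HSC and adult LMPP).

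**Figure D1:**
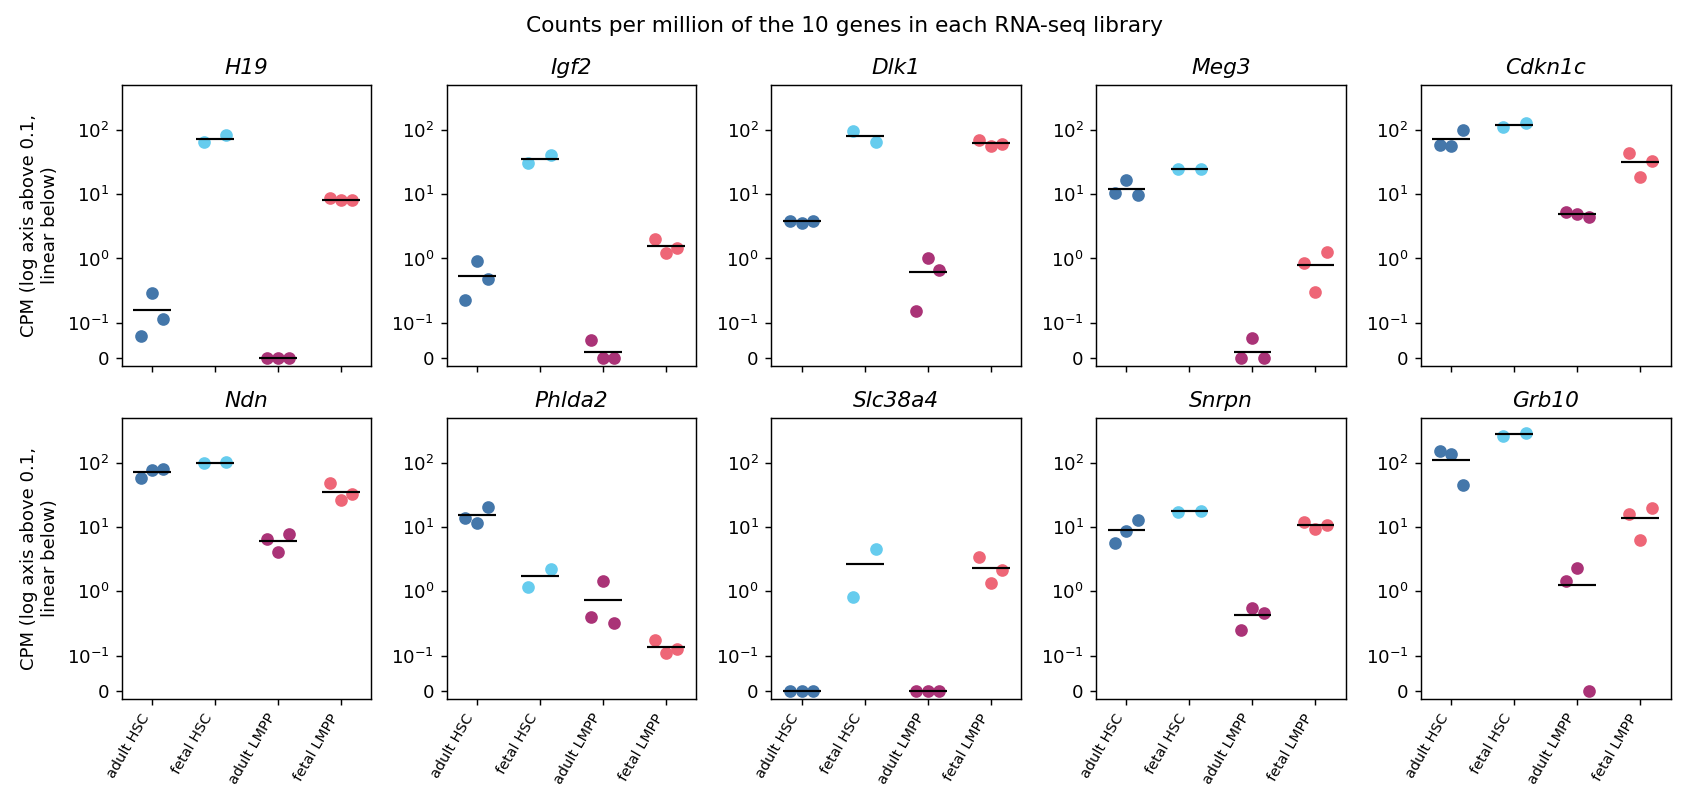
Level of each gene in CPM (vertical axis, logarithmic above 0.1 CPM and linear below it) in the 11 libraries, 1 point per library, by group; the black line is the group mean. Slc38a4 lies at 0 in all 6 adult libraries, H19 lies at 0 in all 3 adult LMPP libraries, and Phlda2 runs from 20.6 CPM in the highest adult HSC library to 0.111 in the lowest fetal LMPP library.

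Age was tested for the 8 genes that adult libraries alone would carry past the filter. In HSC, 2 of 8 were higher in the fetus (Igf2 and Dlk1) and 1 was lower (Phlda2) by edgeR's quasi-likelihood test at an adjusted p under 0.05, where 4.95% of all tested genes were called, 2.07% higher and 2.89% lower. In LMPP, 7 of 8 were higher in the fetus and 1, Phlda2 again, was lower, against 15.4% of all tested genes, 7.08% higher and 8.29% lower. The median log2 difference over the 8 genes was 0.99 in HSC and 4.04 in LMPP, and the median over all tested genes was 0 in both. With adult HSC 3, adult LMPP 3 and fetal LMPP 1 left out, 4 of the 8 were higher and 1 lower in HSC, with Cdkn1c (1.045 ± 0.22, edgeR adjusted p = 0.0143) and Snrpn (1.27 ± 0.33, edgeR adjusted p = 0.031) among those higher, while the share of all genes called rose as well, to 16.2%. The count in LMPP was 7 and 1 in that fit too, where 30.5% of all genes were called. With the 2 LMPP groups fitted alone, 6 of the 8 passed the filter. Of these, 5 were higher and 0 lower, where 1959 of 13139 genes were called. With the replicate number as a block in all groups, 7 of 8 were higher and 0 lower in LMPP, where 2078 of 14720 genes were called. By cell type, 9 of the 9 genes with a value were lower in LMPP than in HSC in adults, where 17.1% of all genes were called, 7.76% higher and 9.33% lower. A fit of the adult groups alone with the replicate number as a block called 4356 genes, 31.9% of those tested, and 7 of 7 members, since H19 and Igf2 did not pass its filter. In the fetus, 7 of 10 were lower, where 18.1% were called, 8.21% higher and 9.85% lower. The medians over the genes were −4.37 in adults and −2.54 in the fetus, against −0.05 and −0.08 over all genes. The 2 age comparisons share no library, while each cell type comparison uses the same libraries as the age comparisons.

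**Figure D2:**
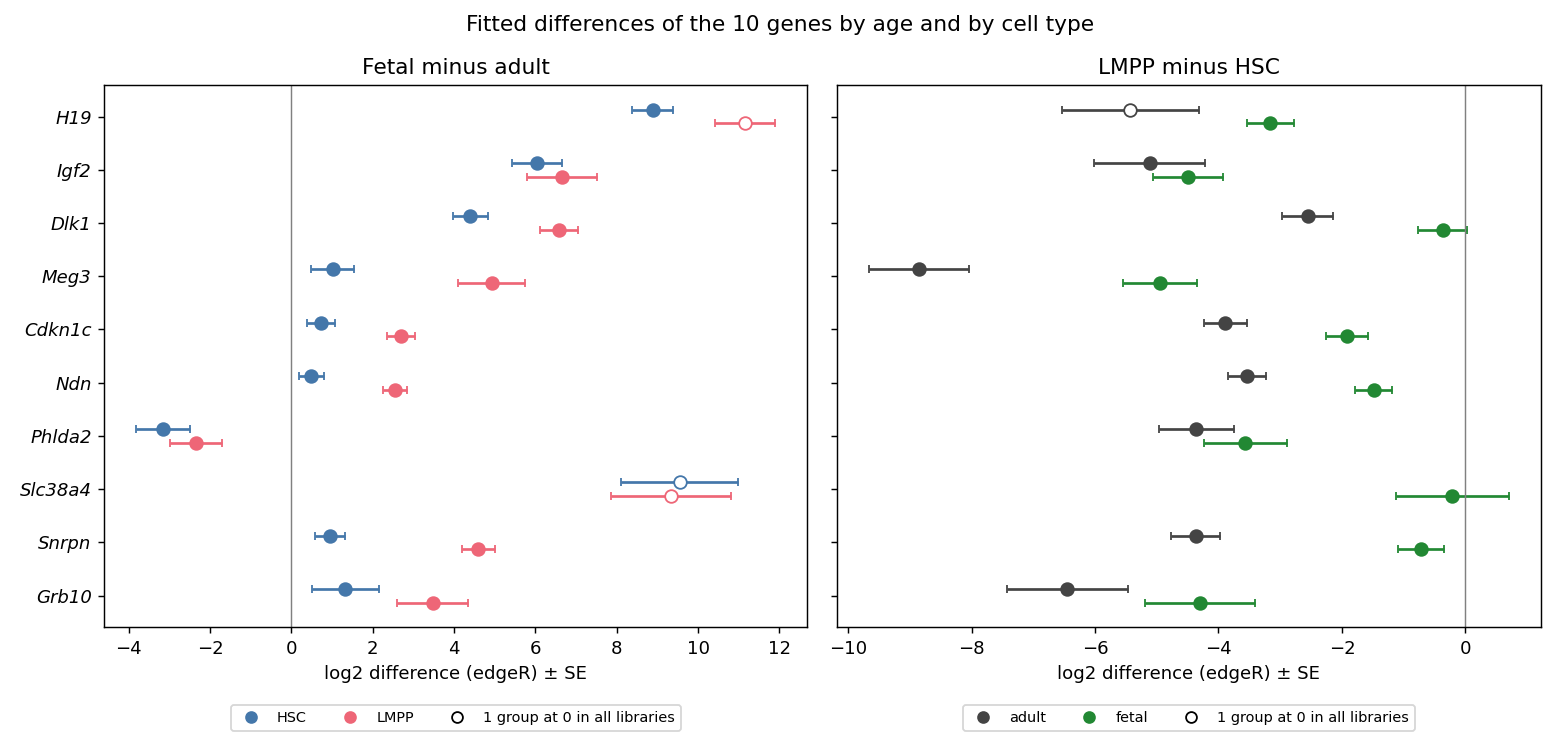
Log2 differences fitted by edgeR with their standard errors for each gene (horizontal axis), fetal minus adult on the left and LMPP minus HSC on the right; open points mark genes at 0 in all libraries of 1 group, whose place depends on the prior count. Phlda2 lies left of 0 in all 4 comparisons, and H19, Igf2, Dlk1 and Slc38a4 lie right of 4 in both age comparisons. H19 and Slc38a4 are shown there but get no age test.

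Igf2 and H19 share a cluster on chromosome 7. Igf2 (transcript NM_010514, chr7:142650768-142658804, minus strand, mm10) encodes insulin-like growth factor 2, the main fetal growth factor of the IGF family, and H19 (NR_130973, chr7:142575530-142578146, minus strand) is a maternally expressed noncoding RNA whose start site lies 80.658 kb away. In adult HSC 1 to 3, Igf2 stood at 0.222, 0.911 and 0.482 CPM, and in fetal HSC 1 and 2 at 30.5 and 40.2. The groups did not overlap, and the log2 difference was 6.04 ± 0.61 (SE), 65.6-fold, with an edgeR adjusted p of 0.000365. LMPP carried far less: 0.0505, 0 and 0 CPM in adult LMPP 1 to 3, and 1.99, 1.22 and 1.45 in fetal LMPP 1 to 3. The 3 adult LMPP libraries held 1 count in all against 179 in the fetal ones, a ratio of 144 with an exact counting interval of 25.5 to 5721 (edgeR adjusted p = 0.000832). Fetal LMPP lay below fetal HSC, with a log2 difference of −4.50 ± 0.57 (edgeR adjusted p = 0.000911), and adult LMPP held 1 count against 64 in adult HSC (edgeR adjusted p = 0.0035).

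H19 gets no age test, since its place among the tested genes rests on the fetal libraries. It stood at 0.0634, 0.293 and 0.116 CPM in adult HSC 1 to 3, from 2, 9 and 7 counts, and at 63.9 and 82.7 in fetal HSC 1 and 2. The fitted log2 difference of 8.88 ± 0.50, 472-fold, is given as a description. Adult LMPP held no H19 count in any of 3 libraries, while fetal LMPP 1 to 3 stood at 8.63, 7.98 and 7.99 CPM, at least 73.7-fold higher against a floor of 3 counts per library. The 3 fetal LMPP libraries lay close together, and all were below both fetal HSC libraries, with a log2 difference of −3.16 ± 0.38 (edgeR adjusted p = 0.00158). In adults, 18 counts in HSC against 0 in LMPP gave a bound of at least 1.42-fold (edgeR adjusted p = 0.0117). Reads on the miR-675 line followed H19, with 64 and 174 counts in fetal HSC 1 and 2, 5.5 to 20.5 in fetal LMPP, 1.5 counts in 1 of 3 adult HSC libraries and 0 elsewhere. They are reads of the host exon, since the library chemistry does not capture mature microRNAs.

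Hepatocytes of the fetal liver also express H19, Igf2 and Dlk1. Between fetal HSC 1 and 2, Alb stood at 0.236 and 13.7 CPM, while H19 stood at 63.9 and 82.7, Igf2 at 30.5 and 40.2 and Dlk1 at 95.3 and 64.7. Among fetal LMPP 1 to 3, Alb stood at 13.2, 0.887 and 4.42 CPM, while H19 stood at 8.63, 7.98 and 7.99, Igf2 at 1.99, 1.22 and 1.45 and Dlk1 at 68.6, 56.7 and 60.6. The library with the most Alb had the most of all 3 in fetal LMPP, and of H19 and Igf2 but not of Dlk1 in fetal HSC. The part of hepatocyte RNA in these values was not tested.

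The balance of H19 and Igf2 also differed between groups. Per kb, H19 stood at 0.426 to 0.568 times Igf2 in adult HSC, at 3.70 and 3.64 times in fetal HSC and at 7.66 to 11.6 times in fetal LMPP, and no adult LMPP library gave a ratio.

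Dlk1 and Meg3 are neighbours on chromosome 12. Dlk1 (NM_010052, chr12:109453455-109463336, plus strand) encodes a membrane protein related to Notch ligands, which is known as a factor on fetal liver cells that support HSC, and Meg3 (NR_027652, chr12:109540996-109571729, plus strand) is a maternally expressed noncoding RNA that starts 87.541 kb further along. Adult HSC 1 to 3 held Dlk1 at 3.84, 3.58 and 3.89 CPM, and fetal HSC 1 and 2 at 95.3 and 64.7. That was a log2 difference of 4.41 ± 0.43, 21.2-fold (edgeR adjusted p = 0.000263). In LMPP, Dlk1 rose from 0.152, 1.01 and 0.655 CPM in the adult libraries to 68.6, 56.7 and 60.6 in the fetal ones, by 6.59 ± 0.47 on the log2 scale (edgeR adjusted p = 2.49e-05). The fetal LMPP libraries reached into the range of fetal HSC. The difference of fetal LMPP from fetal HSC was −0.37 ± 0.39, with a 95% interval of −1.24 to 0.50 and an edgeR adjusted p of 0.557. In adults, Dlk1 was lower in LMPP, with a log2 difference of −2.55 ± 0.42 (edgeR adjusted p = 0.00223).

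Meg3 followed another order of groups, with both HSC groups above both LMPP groups. Adult HSC 1 to 3 held it at 10.5, 16.5 and 9.57 CPM and fetal HSC 1 and 2 at 24.6 and 24.9, a log2 difference of 1.02 ± 0.53 that did not pass the test (edgeR adjusted p = 0.347). It was nearly absent from LMPP: 0, 0.056 and 0 CPM in adult and 0.835, 0.296 and 1.28 in fetal LMPP 1 to 3. The 85 fetal against 2 adult LMPP counts gave a ratio of 34.2 with an exact counting interval of 9.18 to 287 (edgeR adjusted p = 0.00346). In adults, 1414 counts in HSC against 2 in LMPP gave a ratio of 497 with an interval of 137 to 4105 (edgeR adjusted p = 7.46e-05), and in the fetus the log2 difference of LMPP from HSC was −4.95 ± 0.60 (edgeR adjusted p = 0.000791). Per kb, Dlk1 stood at 0.0955 to 0.178 times Meg3 in adult HSC, at 1.70 and 1.14 times in fetal HSC, and at 36.1, 84.2 and 20.9 times in fetal LMPP 1 to 3. Adult LMPP 2, the adult LMPP library with Meg3 counts, stood at 7.91 times, so Dlk1 was above Meg3 in an adult library as well.

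**Figure D3:**
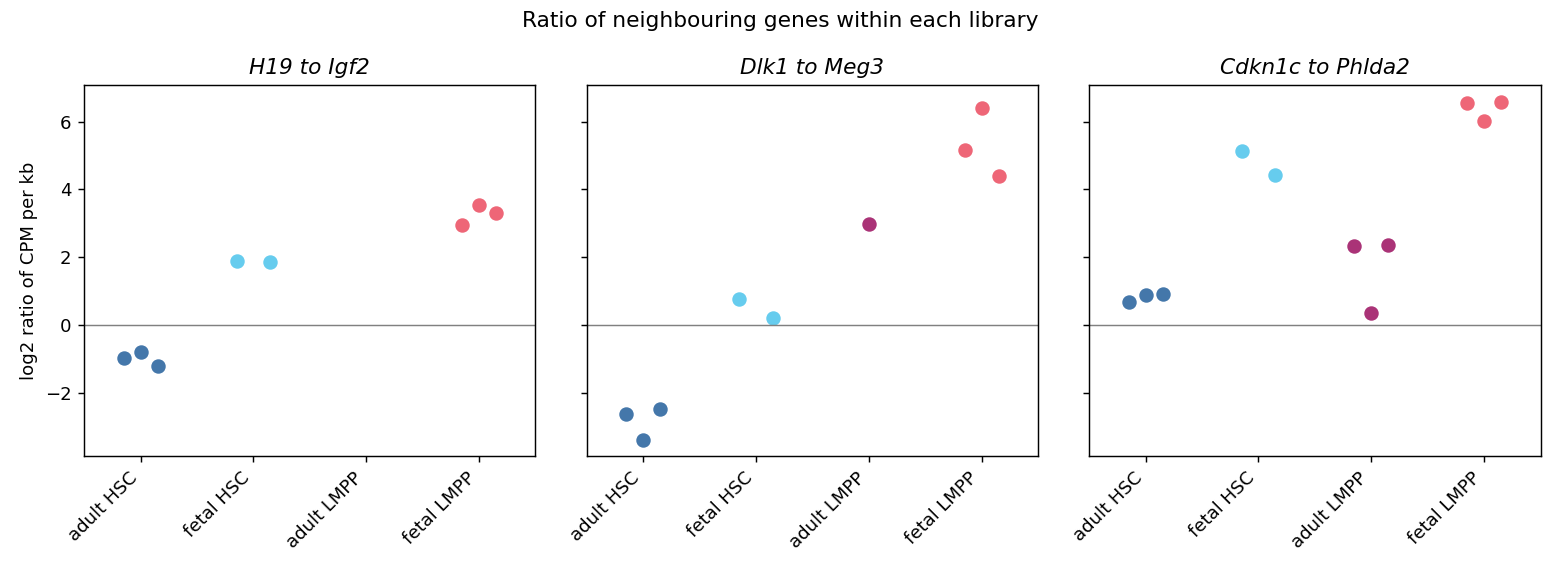
Log2 ratio of CPM per kb of neighbouring imprinted genes within each library (vertical axis), 1 point per library, by group; libraries in which a gene of the pair was at 0 have no point. In adult HSC the H19 to Igf2 and Dlk1 to Meg3 ratios lie below 0 in all 3 libraries, and in fetal HSC and fetal LMPP they lie above 0 in all 5; the 1 adult LMPP library with a Dlk1 to Meg3 point lies above 0 too, at 2.98.

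Cdkn1c and Phlda2 lie 41.474 kb apart in the distal part of chromosome 7 and, in LMPP, differed in opposite directions with age. Cdkn1c (NM_001161624, chr7:143458339-143461050, minus strand) encodes p57, an inhibitor of cyclin-dependent kinases needed to keep mouse HSC quiescent. It stood at 58.9, 55.8 and 101 CPM in adult HSC 1 to 3 and at 110 and 129 in fetal HSC, a difference of 0.73 ± 0.34 that did not pass the test with all libraries (edgeR adjusted p = 0.289). Adult LMPP 1 to 3 held it at 5.31, 4.90 and 4.39 CPM and fetal LMPP 1 to 3 at 43.5, 18.8 and 32.3, a rise of 2.70 ± 0.34 on the log2 scale, 6.49-fold (edgeR adjusted p = 0.000683). LMPP held less than HSC at both ages, with log2 differences of −3.89 ± 0.35 in adults (edgeR adjusted p = 7.29e-05) and −1.92 ± 0.34 in the fetus (edgeR adjusted p = 0.00486; 0.0508 without fetal HSC 2).

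Phlda2 (NM_009434, chr7:143501548-143502524, minus strand) encodes a small pleckstrin homology domain protein known for restraining placental growth in the mouse. It was the 1 gene of the 10 that was lower in the fetus. Adult HSC 1 to 3 stood at 13.9, 11.6 and 20.6 CPM and fetal HSC at 1.18 and 2.27, a log2 difference of −3.14 ± 0.67 (edgeR adjusted p = 0.0222). In LMPP the levels were 0.404, 1.46 and 0.327 CPM in adults and 0.178, 0.111 and 0.127 in the fetus, where 2 libraries held 3 counts each, with a difference of −2.35 ± 0.64 (edgeR adjusted p = 0.0323). The call in LMPP was lost with the replicate block (edgeR adjusted p = 0.0648). Both falls lost their call on leaving out some libraries: in HSC the adjusted p was 0.238 when fetal HSC 1 was left out, 0.121 for fetal HSC 2 and 0.0502 for adult HSC 1, and in LMPP it reached 0.131 without adult LMPP 2, the highest adult library, and 0.0676, 0.103 and 0.0891 without fetal LMPP 1, 2 and 3. Phlda2 was also lower in LMPP than in HSC, with log2 differences of −4.36 ± 0.60 in adults (edgeR adjusted p = 0.000908) and −3.56 ± 0.67 in the fetus (edgeR adjusted p = 0.00618; 0.0637 without fetal HSC 2). Per kb, Cdkn1c stood at 1.60 to 1.86 times Phlda2 in adult HSC, at 35.2 and 21.5 times in fetal HSC, at 1.27 to 5.07 times in adult LMPP and at 64.2 to 95.9 times in fetal LMPP.

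Grb10 (NM_010345, chr11:11930499-12037420, minus strand) encodes an adaptor that binds and dampens the insulin and IGF receptors. Its adult HSC libraries spread widely, at 152, 135 and 45.1 CPM, the lowest being adult HSC 3, 1 of the libraries that stood apart, and fetal HSC held 264 and 291. The difference was 1.33 ± 0.82 (edgeR adjusted p = 0.447). In LMPP it stood at 1.47, 2.297 and 0 CPM in adults and at 16.0, 6.21 and 19.97 in the fetus, a rise of 3.47 ± 0.88 (edgeR adjusted p = 0.024) that was lost without adult LMPP 1 (0.0775), fetal LMPP 1 (0.0527) or fetal LMPP 3 (0.0666). With the 2 LMPP groups fitted alone the rise was 3.44 ± 1.07 and was not called (edgeR adjusted p = 0.0678). Without the 3 libraries that stood apart it was 2.71 ± 0.50 (edgeR adjusted p = 0.00426). LMPP held far less than HSC, with log2 differences of −6.45 ± 0.98 in adults (edgeR adjusted p = 0.00145) and −4.30 ± 0.89 in the fetus (edgeR adjusted p = 0.00943; 0.0587 without fetal HSC 2).

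Ndn and Snrpn are paternally expressed genes of the Prader-Willi region of chromosome 7. Ndn (NM_010882, chr7:62348277-62349927, plus strand) encodes necdin, which restrains cell growth and binds p53 and E2F1. It was high in every HSC library, at 57.4, 76.2 and 79.5 CPM in adults and 98.2 and 102 in the fetus, a difference of 0.49 ± 0.30 that did not pass the test (edgeR adjusted p = 0.435). In LMPP it rose from 6.52, 4.15 and 7.73 CPM in adults to 47.9, 26.2 and 33.1 in the fetus, by 2.55 ± 0.29 (edgeR adjusted p = 0.000448). It was lower in LMPP than in HSC, with log2 differences of −3.54 ± 0.30 in adults (edgeR adjusted p = 5.63e-05) and −1.48 ± 0.30 in the fetus (edgeR adjusted p = 0.00862; 0.0507 without fetal HSC 1 and 0.068 without fetal HSC 2).

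Snrpn (NM_013670, chr7:59982495-60005199, minus strand) encodes SmN, a core protein of spliceosomal particles best known from brain. It held 5.71, 8.66 and 12.8 CPM in adult HSC 1 to 3 and 17.5 and 17.6 in fetal HSC, a difference of 0.95 ± 0.37 (edgeR adjusted p = 0.19). In adult LMPP it was at 0.253, 0.560 and 0.458 CPM and in fetal LMPP at 11.8, 9.31 and 10.8, a rise of 4.60 ± 0.40, 24.3-fold (edgeR adjusted p = 7.66e-05). It was lower in adult LMPP than in adult HSC, with a log2 difference of −4.37 ± 0.40 (edgeR adjusted p = 7.58e-05), and in the fetus the difference was −0.72 ± 0.37 with a 95% interval of −1.53 to 0.09 (edgeR adjusted p = 0.201). Its exons overlap those of Snurf, whose line carried nearly the same counts, and the table does not separate their reads. Reads could also be shared with the close paralog Snrpb, which stood at 472 to 966 CPM, and their part in the Snrpn values was not tested.

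Slc38a4 (NM_027052, chr15:96994823-97055956, minus strand) encodes a sodium-coupled amino acid transporter known from placenta and liver. No adult library held a count of it. Fetal HSC 1 and 2 stood at 0.826 and 4.56 CPM and fetal LMPP 1 to 3 at 3.45, 1.37 and 2.17. Against a floor of 3 counts per library that is at least 33.3-fold higher in fetal HSC and at least 20.9-fold higher in fetal LMPP. The fetal groups overlapped, with a difference of −0.21 ± 0.91 and a 95% interval of −2.41 to 1.99 (edgeR adjusted p = 0.906). Its order over the fetal libraries was that of Alb within each cell type: Alb stood at 0.236 and 13.7 CPM in fetal HSC 1 and 2 and at 13.2, 0.887 and 4.42 in fetal LMPP 1 to 3. The part of hepatocyte RNA in the Slc38a4 values was not tested.

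Whether the age difference itself differed between LMPP and HSC was tested as an interaction over all genes, in which 0.931% of tested genes were called, 0.387% with a larger and 0.543% with a smaller fetal against adult difference in LMPP. Of the 9 genes with a value, Snrpn was called, with a difference of 3.65 ± 0.55 on the log2 scale (edgeR adjusted p = 0.0138). That call was lost without fetal HSC 1 (0.0975) or fetal HSC 2 (0.136). Values for 4 others were of like sign but did not pass: Ndn 2.05 ± 0.42 (edgeR adjusted p = 0.0562), Cdkn1c 1.97 ± 0.48 (0.103), Dlk1 2.18 ± 0.58 (0.127) and Meg3 3.90 ± 1.04 (0.132). DESeq2 called these 4 and Snrpn, along with 3.82% of the genes it tested. For Igf2, Phlda2 and Grb10 the intervals included 0. So did that of H19, whose value rests on age differences that get no test, and Slc38a4 had no value.

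The libraries' levels of some genes outside the 10 followed them closely. Likeness was measured as Pearson's r of log2 CPM over the 11 libraries, which share 4 groups, and is given as a description. H19 was most like Zcchc3 (0.985) and Igf2bp2 (0.974), leaving aside the miR-675 line, and Igf2 was most like Lst1 (0.984). Dlk1 went with Ramp2 (0.981), Igf2bp2 (0.978) and Lin28b (0.970). Meg3 went with Tek (0.989), the gene of the TIE2 receptor carried by HSC, followed by Obsl1 and Ryk. Cdkn1c and Ndn shared the 3 genes most like them, Mycn, Klhl13 and Ocln, with r from 0.983 to 0.992, and were alike themselves at 0.982. Phlda2 was most like Rnf125 (0.989), Slc38a4 like Prkag3 and Spp2 (both 0.993), Snrpn, leaving aside Snurf, like Rtkn (0.978), and Grb10 like Nbea (0.980). Prkag3 and Spp2, like Slc38a4, were at 0 in both adult groups, so their r includes these shared zeros. In fetal HSC and fetal LMPP, Prkag3 averaged 0.987 and 0.856 CPM and Spp2 0.444 and 0.553. Igf2bp1, whose protein binds Igf2 and H19 RNA and which was among the 3 genes most like Slc38a4, was at 0 in all 6 adult libraries and averaged 75.8 ± 1.59 CPM in fetal HSC (SD, n = 2) and 127 ± 39.2 in fetal LMPP (SD, n = 3).

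The share of other imprinted genes called with age was near that of all tested genes. Of 52 listed imprinted genes outside the 10, 51 were in the table and 33 were tested. In HSC 1 of 33 was higher in the fetus and none was lower by edgeR, where 6 had an unadjusted p under 0.05 and DESeq2 called 2. In LMPP 3 were higher and 1 was lower, where 10 had an unadjusted p under 0.05 and DESeq2 called 7. The edgeR calls are 3.03% and 12.1% of the 33, against 4.95% and 15.4% of all tested genes. Mcts2, a retrogene in an intron of H13, was higher in both, at 0.857 ± 0.237 against 4.86 ± 0.464 CPM in HSC (log2 difference 2.50 ± 0.45, edgeR adjusted p = 0.00952) and 0.591 ± 0.320 against 8.26 ± 1.502 in LMPP (3.83 ± 0.46, edgeR adjusted p = 0.00054). The other 2 that rose in LMPP were Snurf, which shares reads with Snrpn, and Ddc, at 0 in adult LMPP and 3.37 ± 2.64 CPM in fetal LMPP. Osbpl5, in the cluster of Cdkn1c and Phlda2, fell in LMPP from 29.6 ± 9.01 to 5.20 ± 0.988 CPM (−2.51 ± 0.58, edgeR adjusted p = 0.0166). By cell type, 3 of 33 were lower and 1 was higher in LMPP in adults and 4 were lower in the fetus, with Sgce and Asb4 lower at both ages. The median over the 33 was 0.21 in HSC and −0.06 in LMPP with age, and −0.44 in adults and −0.58 in the fetus by cell type.

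Lists of genes that act with the 10 held between 0 and 3 calls with age each, out of 4 to 13 tested genes, and their counts are to be read against the 4.95% of all tested genes called in HSC and the 15.4% called in LMPP. Of 12 tested IGF ligands, receptors and binding proteins, edgeR called none in HSC, where 4 had an unadjusted p under 0.05 and DESeq2 called 3. The receptors Igf1r (0.22 ± 0.50), Igf2r (1.73 ± 0.49) and Insr (0.84 ± 0.26) did not pass in HSC, with edgeR adjusted p of 0.881, 0.0768 and 0.108. In LMPP the 2 that rose were Stc1 and Stc2, which encode stanniocalcins, inhibitors of the protease that frees IGF from a binding protein; Stc1 stood at 0 in adult LMPP and 29.1 ± 4.98 CPM in fetal LMPP. Igf1 itself was lower in LMPP than in HSC in the fetus, at 0.468 ± 0.489 against 17.4 ± 6.43 CPM (edgeR adjusted p = 0.0206).

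Of 13 tested factors that maintain imprints, edgeR called none in HSC, where 0 had an unadjusted p under 0.05 and DESeq2 called 0, and 2 were lower in fetal LMPP. These were Zfp57, a zinc finger protein that binds methylated imprinting control regions (1.58 ± 0.770 against 0.316 ± 0.0341 CPM, −2.29 ± 0.53, edgeR adjusted p = 0.016), and Arid4a (87.4 ± 12.6 against 45.4 ± 3.48 CPM, −0.94 ± 0.16, edgeR adjusted p = 0.00303). Of 9 tested Notch receptors, ligands and targets, edgeR called none in HSC, where 1 had an unadjusted p under 0.05 and DESeq2 called 0, and 3 rose in fetal LMPP: the target Hes1, from 0.281 ± 0.197 to 7.24 ± 2.05 CPM, the ligand Jag1 and the receptor Notch3, both under 1 CPM on average in LMPP. Of 4 tested inhibitors of cyclin-dependent kinases other than Cdkn1c, Cdkn2c fell in both cell types, from 28.5 ± 8.14 to 0.652 ± 0.301 CPM in HSC (edgeR adjusted p = 0.0199) and from 40.2 ± 12.0 to 0.634 ± 0.638 in LMPP (edgeR adjusted p = 0.00265), and Cdkn1a fell in LMPP from 26.2 ± 2.15 to 10.3 ± 3.68 CPM. Of the 8 tested Slc38 transporters other than Slc38a4, edgeR called none with age, where in HSC 2 had an unadjusted p under 0.05 and DESeq2 called 1, and in LMPP both counts were 0.

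Open chromatin at the start sites varied between the genes. A promoter region was a listed peak within 1 kb of the start site, and the authors' signal value of a peak is used to rank it within its own list; with 1 list per group there is no spread and no test. Of the 10 genes, 6 had a promoter region in the adult HSC list, 5 in fetal HSC, 3 in adult LMPP and 3 in fetal LMPP, and the shares among all tested genes were 83.4%, 81.8%, 80.6% and 76.4%. Cdkn1c and Ndn had a region in all 4 lists, as had 72.1% of tested genes, and Ndn's ranked high, above 91.4% of the adult HSC, 96.7% of the fetal HSC, 66.9% of the adult LMPP and 93.5% of the fetal LMPP list. It was the lowest in adult LMPP, the group with the lowest Ndn level. Cdkn1c's ranked lower, above 45.9%, 26.7% and 34.0% of the adult HSC, fetal HSC and adult LMPP lists, and lowest, above 12.0%, in the fetal LMPP list, with a signal of 3.77. In both cell types that rank was lower in the fetal list, while mean Cdkn1c RNA was higher in the fetus. It averaged 119 against 71.9 CPM in HSC and 31.5 against 4.87 in LMPP.

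For 3 genes a promoter region was in the list of 1 group. H19 had its region (chr7:142578128-142578392, signal 4.63) in the fetal HSC list, the group with the most H19, a pattern of 0.958% of tested genes. Igf2 (chr7:142658695-142659658, signal 5.18) and Phlda2 (chr7:143502016-143503039, signal 5.05) had theirs in the adult HSC list, a pattern of 1.58% of tested genes. Adult HSC were the group with the most Phlda2, while Igf2 RNA was 65.6-fold higher in fetal HSC. All 3 regions were weak, above 11.8%, 9.7% and 8.2% of their lists. Snrpn's region was in all lists but adult LMPP, the group with the least Snrpn, a pattern of 1.45% of tested genes. Grb10's was in all lists but fetal LMPP, a pattern of 4.06%. Adult LMPP, whose list had it, held the least Grb10, at 1.25 CPM on average against 14.0 in fetal LMPP. The absence from the fetal LMPP list holds for the start site of the deposited table. Another RefSeq start site of Grb10, at chr11:12027971, had a peak within 1 kb in the fetal LMPP list alone. That peak belongs to a region 11.24 kb past the deposited start that was in all 4 lists. Its peak ended at chr11:12027023 in fetal LMPP, and at 12026771, 12026568 and 12026649 in adult HSC, fetal HSC and adult LMPP, outside that 1 kb. This stronger region ranked above 81.3%, 73.5%, 75.1% and 58.5% of adult HSC, fetal HSC, adult LMPP and fetal LMPP peaks. Dlk1, Meg3 and Slc38a4 had no promoter region in any list, as had 12.6% of tested genes, although Dlk1 averaged 80.0 ± 21.6 CPM in fetal HSC (SD, n = 2). A peak missing from a list may have fallen below its threshold, and the fetal LMPP list was the shortest, with 37156 distinct peaks against 48286 to 53068.

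Within 50 kb of the start sites lay 43 distinct regions, counted over the 4 lists. Of these, 27.9% were in fetal lists alone and 30.2% in adult lists alone, against 13.98% and 28.4% of all regions of the series, and 16.3% were in all 4 lists against 30.7%. Around Meg3, a region inside the gene 1.86 kb past its start was in the fetal HSC and fetal LMPP lists (signal 9.01 and 5.31) and in neither adult list, as was a region 13.35 kb before the start. Dlk1 had a region inside the gene, 6.21 kb past its start, in the 2 adult lists (signal 6.70 and 8.23), where its RNA was low, and a region 15.96 kb before the start in all lists but adult LMPP. H19 had a region 44.85 kb past its start in all 4 lists. Between Cdkn1c and Phlda2, regions 5.33 and 34.61 kb before the Cdkn1c start were in both adult lists and in neither fetal list. In the same interval, regions 8.99 and 19.76 kb before that start were in the fetal HSC list alone (signal 4.09 and 5.14). A region at 12.59 kb was in the adult HSC list alone (signal 8.56). Slc38a4 had no listed region within 50 kb in any group.

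**Figure D4:**
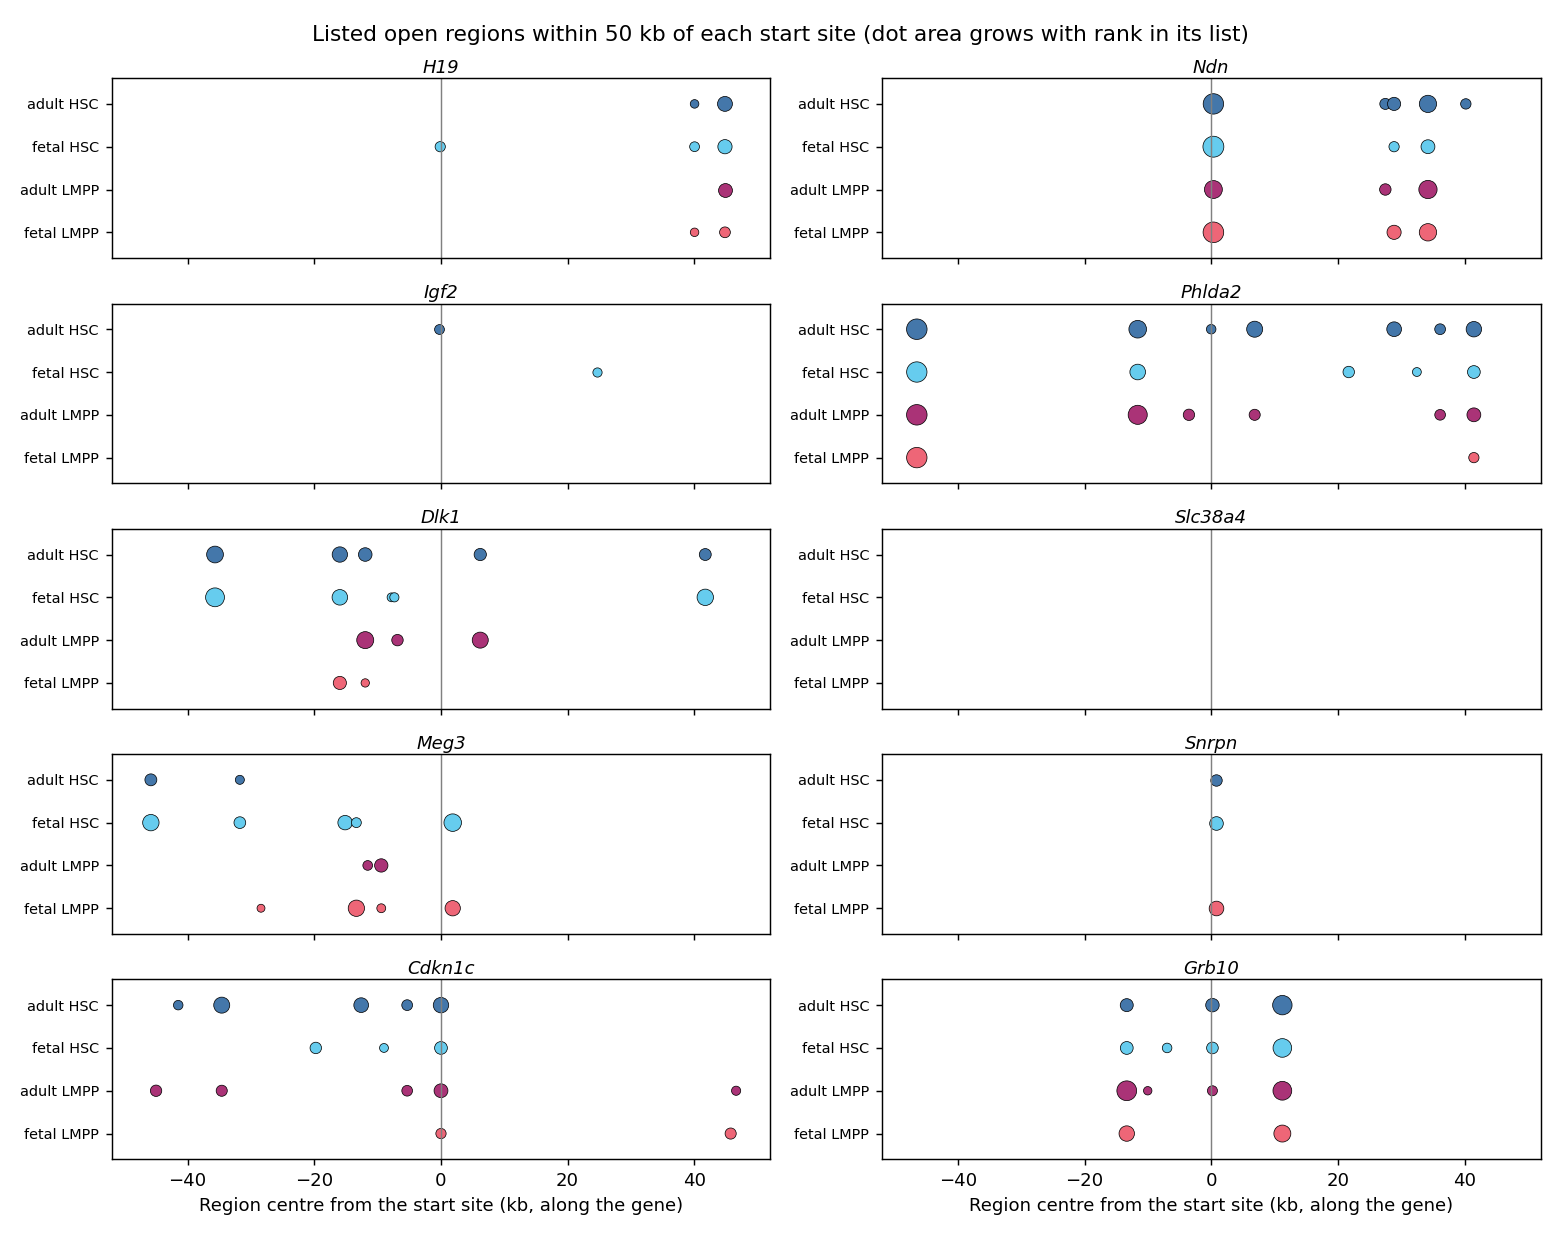
Listed open regions within 50 kb of each start site: the horizontal axis is the distance of the region's centre from the start site in kb, positive along the direction of transcription, the rows are the 4 peak lists, and the area of a dot grows with the share of its list that the peak's signal exceeds. Slc38a4 has no dot, Ndn has a dot at its start in all 4 rows, and the dot 1.86 kb past the Meg3 start is in the 2 fetal rows.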

How the data were processed

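RNA was reverse-transcribed and amplified with an oligo-dT low-input kit and tagmented, per the labels' protocols, which keeps neither strand nor molecular identifiers, so intervals and floors cover counting error only. Levels come from the authors' table of expected counts, which per the file headers sums exon reads for each mm10 gene and is not normalized. Of its values, 22.5% are not whole, and all were rounded before testing. The submitters' processing notes name MACS2, SAMtools 1.9, Bowtie2 2.3.5, STAR, Picard, HOMER, Trim Galore, DESeq2 and RSEM, without roles. For open chromatin, 1 list per group was used, made by the authors from 2 replicates, per the labels. Its signal value (a fold enrichment), score and −log10 q-value are as deposited, and only the signal value was used, to rank peaks within a list, after lines for several summits of a peak were merged. The lists hold only called peaks, and 0 columns of other libraries were in the table.

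The tests used edgeR 4.0.16 (R 4.3.3) with filterByExpr at a minimum count of 10, TMM scaling, 1 mean per group fitted to the 11 libraries together, the quasi-likelihood test and Benjamini-Hochberg adjustment over 14720 genes, with genes called at an adjusted p under 0.05. Every adjusted p is from edgeR unless DESeq2 1.42.0, an alternative, is named. CPM use the TMM-scaled library totals, ± is the SD over libraries for a level and the SE for a log2 difference, and values in ratios of neighbouring genes and in comparisons between genes are per kb of exon. Alternatives were DESeq2, other size factors, no filter or a minimum count of 30, a fit of the compared groups alone, a replicate block and leaving out each library; leaving out the 3 libraries that stood apart was chosen after seeing the data. A fit of the adult groups alone with the block was also added later. Same-numbered adult HSC and LMPP libraries deviated together from their group means (correlations of 0.126, 0.263 and 0.407), so the numbers pair them by the data, while the labels name no shared animal or day. The members, lists and tests were chosen with earlier results of these data known. Named genes were the 10 members, the 3 genes most like each of them (predicted and clone-named genes left out), and up to 4 called genes of each list; receptors and Igf1 were named after their values were seen. Sequences are from RefSeq (GRCm38.p6).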

Additional observations from a re-analysis of the deposited data

Results flagged for a closer look

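Snrpn was singled out because its fetal against adult difference was larger in LMPP than in HSC by a test of the difference itself, 3.65 ± 0.55 on the log2 scale (edgeR adjusted p = 0.0138). Adult LMPP stood at 0.253 to 0.560 CPM against 9.31 to 11.8 in fetal LMPP, while adult HSC stood at 5.71 to 12.8 CPM against 17.5 and 17.6 in fetal HSC. The call was lost without fetal HSC 1 or without fetal HSC 2, where the difference was 3.651 ± 0.72 and 3.658 ± 0.72. Of the 17 alternatives, DESeq2 among them, 15 kept the call, and the difference ran from 3.241 to 3.903. Reads of Snurf are counted with it.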

How the results depend on the processing

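Over all alternatives the 48 fitted differences of single genes gave 858 values. They include the age differences of H19 and Slc38a4, with 18 values each in HSC and in LMPP, which get no test. Of the 858 values, 820 kept direction and call, 22 lost a call, 10 gained one and 6 changed sign, in genes that were not called. These were Slc38a4 between fetal LMPP and fetal HSC, at 0.1032 with the replicate block, 1.492 without fetal HSC 2 and 0.05791 without fetal LMPP 2 (range on leaving out 1 library −0.9665 to 1.492), and, in the interaction, Igf2 at −0.007604 without adult LMPP 2 (range to 2.783) and −0.07144 without the 3 libraries that stood apart, and Phlda2 at −0.1135 without these 3. For Igf2 and Dlk1 no age difference lost its call, nor did any adult difference between LMPP and HSC in the fits that tested it. The number of genes called moved more than the members: with DESeq2 it was 1560 (fetal against adult HSC, 729 in the reported fit), 3447 (LMPP, 2263) and 671 (interaction, 137), and without the 3 libraries it was 2337, 4410 and 789, and 4308 (LMPP against HSC in adults, 2516) and 5549 (in the fetus, 2658). With the groups compared alone it was 4014 in the fetus. DESeq2 called 5 members in the interaction, and 2 were called without the 3 libraries. Leaving out 1 library other than a fetal HSC library gave 521 to 799 genes in HSC, 1366 to 3170 in LMPP and 1618 to 3097 between cell types in adults. It gave 1556 to 3670 in the fetus and 64 to 170 in the interaction. The members called by cell type were 9 in adults and 7 in the fetus, and 1 or 2 were called in the interaction. Of the 8 genes given an age test, 2 were higher and 0 or 1 lower in HSC, and 6 or 7 were higher and 0 or 1 lower in LMPP. Without fetal HSC 1 or 2, which leaves 1 library in that group, some of these calls were lost. Fetal HSC 2 mattered most in HSC (213 genes without it, 269 without fetal HSC 1) and in the fetus (598, against 946 without fetal HSC 1 and 1556 without fetal LMPP 2). In LMPP the counts were 1422 without adult LMPP 1 and 1366 without fetal LMPP 2, and between adult cell types 1618 without adult LMPP 1. In the interaction they were 32 and 45 on leaving out fetal HSC 2 and 1, 64 for adult LMPP 1, and 85 and 89 for adult HSC 1 and 2, with 0 members without fetal HSC 1 or 2 and 2 without adult LMPP 3 or fetal LMPP 2. Among peaks at or above the median signal of their list, 1 member had a promoter region in each of the 4 lists. Among all peaks, 6, 5, 3 and 3 had one in adult HSC, fetal HSC, adult LMPP and fetal LMPP. Of all 25124 genes, 10060, 10191, 9233 and 8527 had one among the stronger peaks, and 14036, 13814, 13334 and 12583 among all peaks. The fits that leave libraries out have fewer samples, and the cause of these moves was not tested.

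Replicate numbers paired adult HSC with adult LMPP, and in the other 12 same-numbered pairs the correlations were −0.171 to 0.0908, none over 0.1. With the replicate block in the adult groups alone 4356 of 13637 genes were called. The fit of these groups without the block called 701 genes higher and 1097 lower, and that of all 11 libraries called 2516 of 14720. The 7 members that passed the filter of the blocked fit kept their call, and H19 and Igf2 did not pass it. With the block in all groups the interaction called 86 genes. Of the 8 genes given an age test, 2 were higher and 1 was lower in HSC, where 555 of 14720 genes were called. In LMPP 7 of the 8 were higher, where 2078 genes were called.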
